A study of Mus musculus with 4 samples.

Results

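Small leucine-rich proteoglycans are secreted matrix proteins built around a curved stack of leucine-rich repeats, and most of them carry chondroitin, dermatan or keratan sulfate chains. They bind collagen fibrils and set fibril spacing and diameter, and several of them also bind growth factors of the TGF-beta family or cell surface receptors. In tumours they are known mainly as products of stromal fibroblasts. The 8 family members followed here are decorin (Dcn), lumican (Lum), biglycan (Bgn), fibromodulin (Fmod), osteoglycin (Ogn), asporin (Aspn), PRELP (Prelp) and osteomodulin (Omd), out of 35905 genes in the tables. They were chosen by family membership, with their levels in these libraries already known, so the levels are given as a description without a test.

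Transcripts were measured in Lewis lung carcinoma (LLC) cells, a C57BL/6 mouse lung cancer line. The cells carried the red fluorescent protein TdTomato, grew as subcutaneous flank tumours and were sorted after 4 weeks as TdTomato-positive, CD45-negative cells. In the PAD4-DN group (2 libraries) the hosts were Mrp8Cre+ and Padi4fl/fl, and in the WT group (2 libraries) they were Mrp8Cre- and Padi4fl/fl, so both groups carried the floxed Padi4 alleles. Mrp8Cre is a driver active in neutrophils, so the deletion lies in host cells and the sorted cancer cells were not themselves edited. Padi4 itself had 6 and 0 counts in PAD4-DN and 0 and 2 counts in WT, so its level in the sorted cells does not check the labels. Whether the replicates are separate animals is not stated in the labels, and each p-value reflects only how far these libraries differ among themselves, which may be technical. The libraries held 20036322 and 24142484 estimated counts in PAD4-DN replicates 1 and 2 and 23414984 and 25327974 in WT replicates 1 and 2.

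The label of the sorted cells was checked against marker genes fixed as lists. The keratins Krt18 (184 to 227 TPM) and Krt8 (131 to 178 TPM) were present in every library, while the epithelial adhesion genes Epcam and Cdh1 had at most 7 counts in any library. TPM is the length-scaled unit of transcript abundance deposited by the authors. CD45 itself (Ptprc) was at 1.88 and 0.324 TPM in PAD4-DN and 0.713 and 0.551 TPM in WT. The whole list of 9 pan-leukocyte markers summed to 127 and 79.6 TPM in PAD4-DN and 96.6 and 89.9 TPM in WT, with no marker at 0 in any library. Of the 18 fibroblast markers, 17 passed the filter on low counts. Pdgfra, a fibroblast receptor, was at 93.0 and 66.6 TPM in PAD4-DN and 69.0 and 73.9 TPM in WT, and the matrix protein dermatopontin (Dpt) at 241 and 170 TPM against 118 and 141 TPM.

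Decorin and lumican were high in every library, biglycan and asporin were moderate and varied by library, osteoglycin and PRELP were low, and osteomodulin and fibromodulin were close to the counting limit. By mean over the 4 libraries the order was Dcn at 851 ± 117 TPM, Lum at 293 ± 94.1, Bgn at 39.4 ± 31.7, Aspn at 23.2 ± 13.0, Ogn at 2.97 ± 1.70, Prelp at 1.62 ± 1.87, Omd at 0.285 ± 0.243 and Fmod at 0.0273 ± 0.0344 TPM (SD, n = 4 libraries). Dcn lay above Lum, Lum above Bgn, Aspn above Ogn and Omd above Fmod in all 4 libraries without overlap of their ranges. Bgn and Aspn overlapped, with Bgn the higher in 3 of 4 libraries. The ranges of Ogn and Prelp also overlapped, though Ogn was the higher in all 4 libraries. Those of Prelp and Omd overlapped too, with Prelp the higher in 2 of 4. Dcn and Lum together made up 93.2% and 96.6% of the summed TPM of the 8 genes in PAD4-DN and 97.4% and 89.8% in WT.

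**Figure D1:**
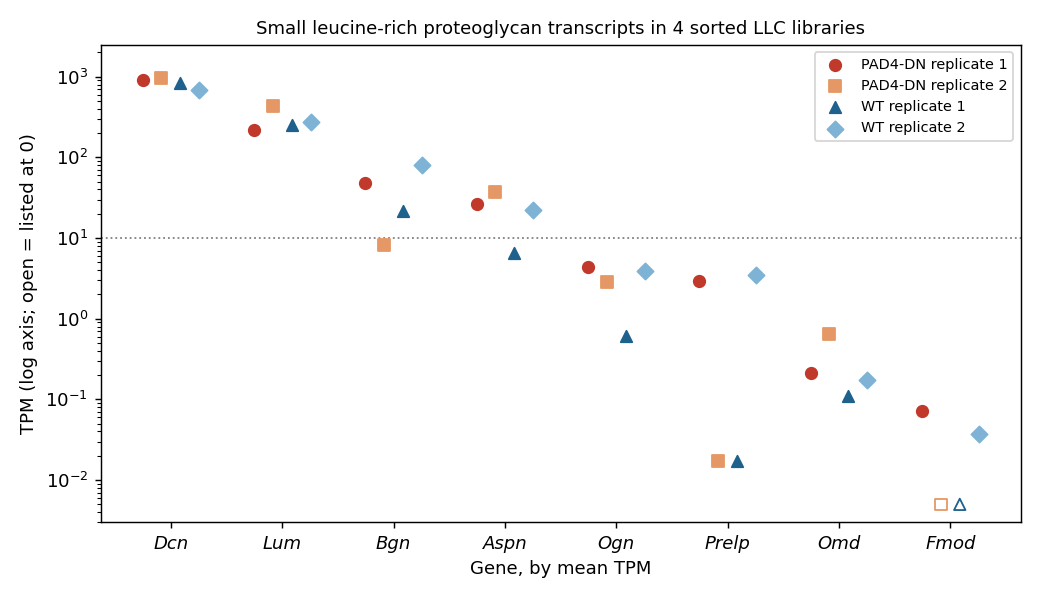
TPM (log axis) of the 8 proteoglycan genes in each of the 4 libraries, ordered by mean TPM, with open symbols for genes listed at 0 and a dotted line at 10 TPM. Dcn and Lum lie at 219 TPM or above in every library, Bgn and Aspn fall on both sides of 10 TPM, and Prelp is at 2.93 TPM in PAD4-DN replicate 1 and 3.52 TPM in WT replicate 2 but at 0.0173 TPM or below in the other libraries.

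Decorin wraps onto collagen fibrils, sequesters TGF-beta and is an antagonist of the receptors EGFR and Met. Dcn stood at 911 and 961 TPM in PAD4-DN libraries, against 840 and 692 TPM in WT libraries. It ranked between position 145 and position 176 of 35905 genes by TPM, and the lowest value was in WT replicate 2. In CPM, counts relative to library size after TMM scaling, Dcn was at 980 and 1045 in PAD4-DN and 981 and 770 in WT, a ratio of highest to lowest library of 1.36. Of its 5 transcripts, Dcn-201 held 92.2% and 94.2% of the estimated counts in PAD4-DN and 92.6% and 95.3% in WT, and Dcn-202 held nearly all of the rest. Those transcripts are both 1758 bases long and share their last 1580 bases, so the split between them rests on reads from the first 178 bases.

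Lumican, a keratan sulfate proteoglycan best known from the transparent cornea, also regulates fibril assembly in skin and tendon. Lum was at 219 and 430 TPM in PAD4-DN, against 251 and 273 TPM in WT. PAD4-DN replicate 2 stood above the other 3 libraries, which lay close together. Its ratio of highest to lowest CPM was 1.98, just inside the limit of 2 used here to call a gene steady, and the 95% counting interval of that ratio, 1.93 to 2.04, spans the limit. By this limit Dcn and Lum were steady, and Bgn, Aspn, Ogn and Prelp were not. Of the 285 tested genes at least as abundant as Lum in mean CPM, 13, Lum among them, had a ratio as large. Lum thus varied more than most genes at or above its level, while for Dcn the count was 32 of 97. Among all 13718 tested genes 20.3% had a ratio above 2. The next ratio outside the limit was 5.24 for Omd, from 22 and 4 counts, with a counting interval of 1.78 to 20.9 that also spans the limit, followed by 5.45 for Aspn. Fmod, at 0 in 2 libraries, has no finite ratio.

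**Figure D2:**
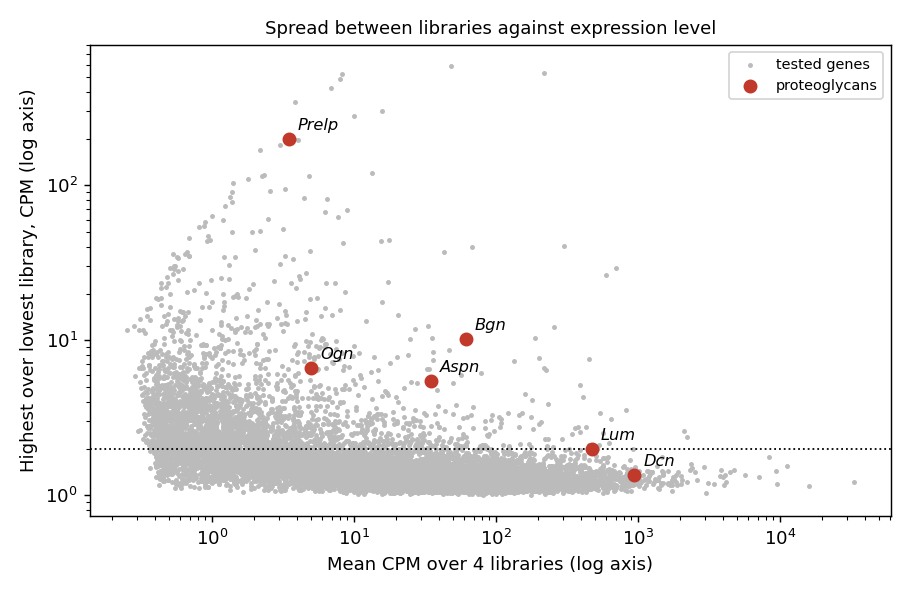
Ratio of the highest to the lowest library in CPM (log axis) against mean CPM (log axis) for the 13591 tested genes with at least 1 count in every library (127 others are not drawn), with the 6 tested proteoglycans in red and a dotted line at a ratio of 2. Dcn (1.36) and Lum (1.98) lie at or under the line, while Aspn (5.45), Ogn (6.66), Bgn (10.2) and Prelp (199) lie above it.

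Biglycan is the closest relative of decorin in the family and, once released from the matrix, a ligand of Toll-like receptors 2 and 4. Bgn was at 47.7 and 8.16 TPM in PAD4-DN, against 21.8 and 80.1 TPM in WT. Each group held a high and a low library, and the ranges of the groups overlapped. The ratio of highest to lowest CPM was 10.2 with a 95% counting interval of 9.01 to 11.5. Of the 3379 tested genes at least as abundant as Bgn in mean CPM, 8, Bgn among them, had a ratio as large. Relative to Dcn, Bgn stood at 5.24% and 0.850% of its TPM in PAD4-DN and 2.60% and 11.6% in WT. The coding transcript Bgn-201 held at least 96.6% of the gene's counts in each library.

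PRELP has a proline- and arginine-rich end that binds heparin and is found near basement membranes and in cartilage. Prelp had 113 and 1 counts in PAD4-DN, against 1 and 210 counts in WT. It was thus present in 1 library of each genotype and at the counting limit in the other. The ratio of WT replicate 2 to PAD4-DN replicate 2 in CPM was 199, with a 95% counting interval of 35.3 to 7885. Prelp passed the filter on low counts through PAD4-DN replicate 1 and WT replicate 2 alone. Fibromodulin, a collagen-binding keratan sulfate proteoglycan of tendon and cartilage, had 3 and 0 counts in PAD4-DN and 0 and 2 counts in WT. Where it was at 0, the floor of 3 counts used here, a 1-sided limit for counting error alone, equals 0.126 CPM in PAD4-DN replicate 2 and 0.132 CPM in WT replicate 1.

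Asporin carries a run of aspartate residues near its start and binds collagen and TGF-beta. Aspn was at 26.6 and 37.7 TPM in PAD4-DN, against 6.47 and 22.1 TPM in WT. Both PAD4-DN libraries lay above both WT libraries, and WT replicate 1 was far below the other 3. Osteoglycin, also called mimecan, regulates collagen fibrils in connective tissues. Ogn was at 4.43 and 2.89 TPM in PAD4-DN, against 0.616 and 3.95 TPM in WT, again with WT replicate 1 lowest and with overlap of the groups. Osteomodulin, a mineral-binding keratan sulfate proteoglycan of bone, had 6 and 22 counts in PAD4-DN and 4 and 6 counts in WT, too few to be tested. Kallisto assigned 10.7% and 9.90% of Aspn counts to the transcript Aspn-202 in PAD4-DN, against 5.31% and 1.97% in WT. Aspn-201 and Aspn-202 share a run of 2056 bases and differ in their starts and at the far end, so this share is an estimate from few reads.

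The sequence before the start of transcription is shown for Bgn and Prelp, both highest in WT replicate 2 and then in PAD4-DN replicate 1. It is also shown for Aspn and Ogn, which lie on chromosome 13 with Omd between them and were both lowest in WT replicate 1. The 250 bases are given 5′ to 3′ on the gene's strand, from RefSeq on GRCm38.p6, an earlier build than the GRCm39 of the deposited files. Of the 8 members, 6 had an entry. Capitals mark matches on either strand to TATAAA (the TATA box), GGGCGG (the GC box), TGANTCA (the AP-1 site) or CCAAT, and overlapping matches run together. The windows are chrX:73483351-73483600 (plus strand) for Bgn, chr1:133921402-133921651 (minus strand) for Prelp, chr13:49544193-49544442 (plus strand) for Aspn and chr13:49607765-49608014 (plus strand) for Ogn.
Bgn: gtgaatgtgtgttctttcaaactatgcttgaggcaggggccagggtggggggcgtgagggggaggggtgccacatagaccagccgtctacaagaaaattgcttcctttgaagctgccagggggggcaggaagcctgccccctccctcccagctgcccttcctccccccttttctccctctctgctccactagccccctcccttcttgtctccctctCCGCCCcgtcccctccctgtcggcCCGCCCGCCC
Prelp: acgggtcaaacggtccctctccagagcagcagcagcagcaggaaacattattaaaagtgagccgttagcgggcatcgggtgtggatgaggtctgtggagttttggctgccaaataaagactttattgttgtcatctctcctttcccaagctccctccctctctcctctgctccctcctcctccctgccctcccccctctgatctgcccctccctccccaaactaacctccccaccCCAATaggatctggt
Aspn: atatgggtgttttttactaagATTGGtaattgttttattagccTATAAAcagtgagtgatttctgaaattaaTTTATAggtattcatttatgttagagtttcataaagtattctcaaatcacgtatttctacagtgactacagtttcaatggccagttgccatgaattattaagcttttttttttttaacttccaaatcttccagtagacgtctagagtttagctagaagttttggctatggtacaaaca
Ogn: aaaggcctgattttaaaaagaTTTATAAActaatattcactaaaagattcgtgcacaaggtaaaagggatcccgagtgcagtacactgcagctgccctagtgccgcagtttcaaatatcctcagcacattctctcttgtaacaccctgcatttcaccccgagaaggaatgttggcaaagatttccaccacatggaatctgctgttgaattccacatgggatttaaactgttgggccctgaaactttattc

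The Bgn window held 3 GC boxes within its last 34 bases and no TATA box, and the Prelp window held a CCAAT box whose first base lies 15 bases before the start. The Aspn window held 2 matches to the letters TATAAA, the nearer beginning 178 bases before the start, and a match to CCAAT. The Ogn window held 2 overlapping matches to TATAAA that begin 229 and 227 bases before the start. No window of these 4 held an AP-1 match. Omd, which lies between Aspn and Ogn, was also lowest in WT replicate 1, at 4 counts. Its window, not shown, held no match to any of these motifs. Among 32851 windows of the same length in the same table, 32.7% held a GC box, 12.4% a TATA box, 33.8% a CCAAT box and 6.75% an AP-1 match. On the strand shown, C and T made up 61.2% of the bases in both the Bgn and the Prelp window, a share reached by 4.26% of all windows. The measure was chosen after the sequences had been seen. The shares were 54.0% for Aspn and 50.8% for Ogn, against a median of 50.0%. G and C made up 64.4% of the Bgn window, 55.6% for Prelp, 42.0% for Ogn and 30.0% for Aspn, against a median of 52.4%. A match to such short letters is a description of the window and not evidence of binding.

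Members that lie side by side on a chromosome, by RefSeq on GRCm38.p6, did not share one level. On chromosome 10, Dcn and Lum are followed by keratocan (Kera), a corneal family member, and epiphycan (Epyc), a cartilage one. Far below Dcn and Lum, Kera was at 1.14 and 2.92 TPM in PAD4-DN and 1.23 and 7.23 TPM in WT, and Epyc had at most 10 counts in any library. On chromosome 13 the order is Ecm2, Aspn, Omd and Ogn, and Ecm2 was at 0.861 and 0.594 TPM in PAD4-DN and 0.419 and 0.714 TPM in WT, far below Aspn. On chromosome 1, Prelp lies between opticin (Optc), an eye protein with at most 8 counts in any library, and Fmod. Bgn is on the X chromosome with no family member beside it. Of the 10 other family members and relatives listed, 6 were tested. The most abundant was Tsukushi (Tsku), a secreted BMP antagonist, at 15.6 and 13.5 TPM in PAD4-DN and 13.4 and 14.3 TPM in WT, a ratio of highest to lowest CPM of 1.30.

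The collagens to which these proteoglycans bind also included steady and varying genes, but the steady Col3a1 peaked in other libraries than Dcn and Lum. Type III collagen (Col3a1), which makes fine fibrils, was at 5100 and 2754 TPM in PAD4-DN and 3060 and 3398 TPM in WT. It was highest in PAD4-DN replicate 1, then in WT replicate 2, while Dcn and Lum were highest in PAD4-DN replicate 2. The type I collagen chains Col1a1 and Col1a2, the main fibril-forming chains of skin, bone and tendon, are named here after their values were seen. Col1a1 was at 161 and 4.14 TPM in PAD4-DN, against 3.67 and 127 TPM in WT, and Col1a2 at 129 and 1.24 TPM against 0.421 and 108 TPM. These chains were high in PAD4-DN replicate 1 and WT replicate 2 and low in the remaining libraries, as was Prelp. Bgn was highest in the same libraries but graded. Its WT replicate 1 (35.5 CPM) lay between PAD4-DN replicate 2 (12.3 CPM) and PAD4-DN replicate 1 (72.3 CPM). Dcn thus stood at 5.64 and 232 times the TPM of Col1a1 in PAD4-DN and at 229 and 5.43 times in WT, while it stood at 0.179 and 0.349 times the TPM of Col3a1 in PAD4-DN and at 0.275 and 0.204 times in WT. Of the 12 tested collagen chains, 9 had a ratio of highest to lowest library above 2. Of these 12, 6 were highest in PAD4-DN replicate 1 and 6 in WT replicate 2. The lowest value lay in PAD4-DN replicate 2 for 7 chains and in WT replicate 1 for 5.

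**Figure D3:**
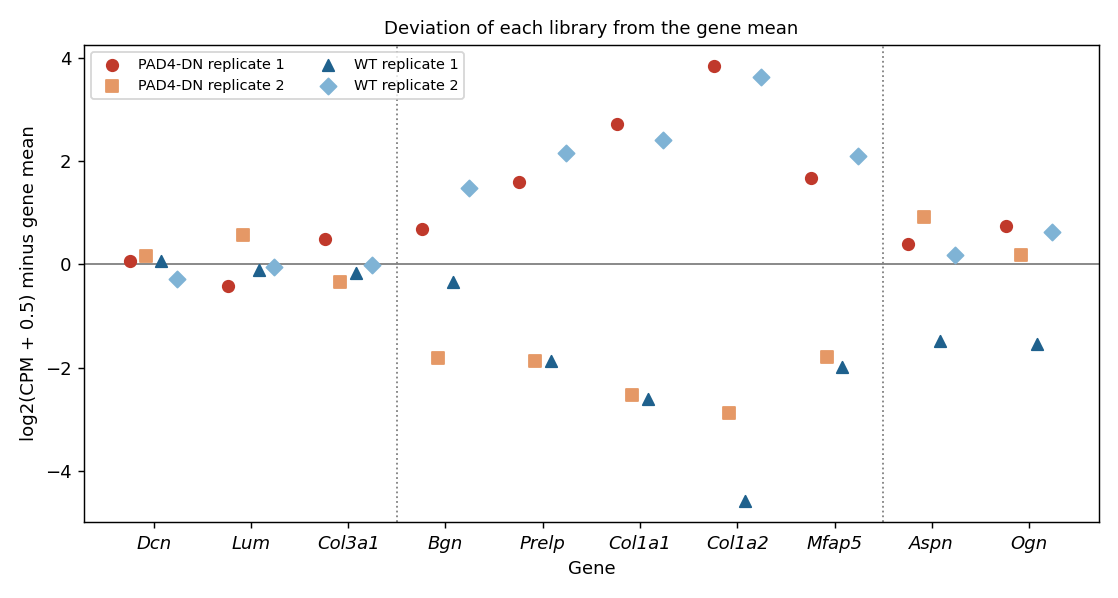
log2(CPM + 0.5) of each library minus the mean of the gene over the 4 libraries, for 6 proteoglycans, 3 collagen chains and the fibroblast gene Mfap5. Dcn, Lum and Col3a1 stay within 0.57 of their mean, Prelp, Col1a1, Col1a2 and Mfap5 are high in PAD4-DN replicate 1 and WT replicate 2, and Aspn and Ogn are low in WT replicate 1.

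Most tested fibroblast markers were highest in PAD4-DN replicate 1 or WT replicate 2, though their sum did not follow this. The marker list summed to 816 and 705 TPM in PAD4-DN and 554 and 711 TPM in WT, a sum dominated by Gsn and Dpt, and PAD4-DN replicate 2, low for Prelp, lay close to WT replicate 2, high for Prelp. Of its 17 tested genes, 12 had a ratio of highest to lowest library above 2. The highest value lay in PAD4-DN replicate 1 for 7 genes and in WT replicate 2 for 9. It lay in PAD4-DN replicate 2 for 1 and in WT replicate 1 for 0. The lowest value lay in PAD4-DN replicate 2 for 6 genes and in WT replicate 1 for 9. It lay in PAD4-DN replicate 1 for 1 and in WT replicate 2 for 1. Among the markers, Mfap5 and Pi16 were also named after their values were seen. Mfap5, a microfibril protein, had 131 and 3 counts in PAD4-DN and 1 and 220 in WT. Pi16, a marker of adventitial fibroblasts, had 296 and 28 counts against 14 and 339. Tcf21 was at 0 in every library but PAD4-DN replicate 1. Whether the varying members came from host fibroblasts in the sort was not tested, and in bulk libraries fewer cells of a type and less RNA per cell cannot be told apart. Macrophage markers summed to 114 and 27.1 TPM in PAD4-DN and 59.6 and 64.7 TPM in WT. Their sum was lowest in PAD4-DN replicate 2, as Bgn was, but highest in PAD4-DN replicate 1, while Bgn was highest in WT replicate 2.

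Profile likeness was taken as the root mean square difference of mean-centred log2(CPM + 0.5) over the 4 libraries. By this measure the genes closest to Bgn among 9678 candidates were the interferon-induced GTPase Ifi47 (0.14), the metalloprotease Adamts12 (0.26) and the interferon-induced GTPase Tgtp2 (0.32). Ifi47 was at 7.37 and 1.22 CPM in PAD4-DN, against 3.47 and 12.4 CPM in WT. Dcn was closest to Utrn, Ythdc1 and Snrnp35, at differences of 0.02 to 0.03, and Lum to Resf1, Cops2 and Ppp1cb, at 0.06 to 0.07. The closest to Aspn were Gm2026 (0.21), Gm45062 (0.40) and Iqgap2 (0.45). Among the 6 tested members the smallest difference was 0.35, between Dcn and Lum, then 0.46 between Ogn and Aspn. The largest was 2.12, between Lum and Prelp. Its size depends on the offset of 0.5, since Prelp was at 0.0419 CPM in PAD4-DN replicate 2 and 0.0440 CPM in WT replicate 1. With 4 libraries many genes resemble any profile, and these names are a description only.

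The comparison of PAD4-DN with WT asked whether tumour cell transcripts differ when host neutrophils lack Padi4. With edgeR's quasi-likelihood test and Benjamini-Hochberg adjustment over 13718 genes, 0 of the 6 tested members were called, against 0% of all genes. Over all genes 364 (2.65%) had an unadjusted p under 0.05, none of them a member, and DESeq2 on the same genes called 11 (0.0802%), again none of them a member. The adjusted p was 0.994 for Prelp and 0.988 for each of the other 5, on edgeR's test. Aspn had the largest log2 fold change, 1.11 (SE 0.54), from 39.1 and 56.0 CPM in PAD4-DN, against 10.3 and 33.7 CPM in WT, with an unadjusted p of 0.0882 on edgeR's test. In CPM it was the only tested member whose groups did not overlap, and 15.4% of all tested genes lay without overlap in that direction. In TPM the groups did not overlap for Dcn either, while in CPM its PAD4-DN replicate 1 (980) and WT replicate 1 (981) were nearly equal. With 2 libraries on each side, the smallest two-sided p of an exact permutation test is 0.333.

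For Dcn and Lum, both inside the limit of 2, the log2 fold change was small. Dcn averaged 1013 ± 45.6 CPM in PAD4-DN and 876 ± 149 CPM in WT (SD, n = 2 each). Its log2 fold change was 0.21 (SE 0.17). Lum averaged 512 ± 239 CPM in PAD4-DN and 434 ± 11.9 CPM in WT, with a log2 fold change of 0.24 (SE 0.32), which was 0.65 without PAD4-DN replicate 1 and −0.34 without PAD4-DN replicate 2. For the members outside that limit the value also depended on which library was left out. The log2 fold change of Bgn was −0.93 (SE 0.91). It was −2.70 without PAD4-DN replicate 1, −0.15 without PAD4-DN replicate 2, −1.56 without WT replicate 1 and 0.25 without WT replicate 2. That of Ogn was 0.62 (SE 0.79), and it was 0.29 without PAD4-DN replicate 1, 0.90 without PAD4-DN replicate 2, −0.15 without WT replicate 1 and 2.46 without WT replicate 2. For Aspn, leaving out WT replicate 1 gave 0.50 and leaving out WT replicate 2 gave 2.21. For Prelp it was −0.60 (SE 2.04), against −6.48 without PAD4-DN replicate 1, 0.40 without PAD4-DN replicate 2, −1.58 without WT replicate 1 and 5.80 without WT replicate 2. The median log2 fold change was 0.22 over the 6 tested members and 0.01 over all tested genes. A difference that missed the threshold with so few libraries does not show that levels were alike.

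**Figure D4:**
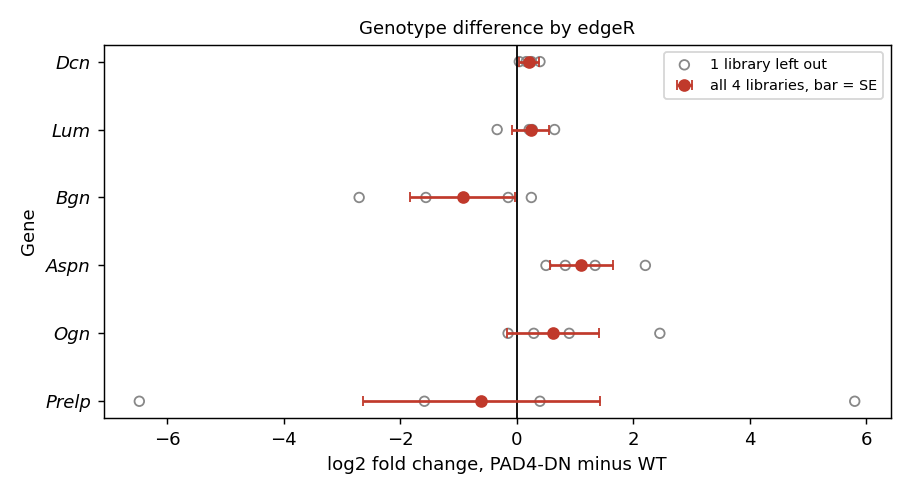
log2 fold change, PAD4-DN minus WT, of the 6 tested members by edgeR, with all 4 libraries (red, bars show SE) and with each library left out in turn (open circles). Values for Dcn stay between 0.05 and 0.40 and those for Aspn between 0.50 and 2.21, while Lum, Bgn, Ogn and Prelp cross 0.

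Among enzymes that build the sugar chains of these proteoglycans, those of chondroitin and dermatan sulfate varied little. Of the 23 listed genes of chondroitin and dermatan sulfate synthesis, 20 were tested and 0 were called in either direction. Of those tested, 1 had a ratio of highest to lowest library above 2, against 20.3% of all tested genes. The list summed to 414 and 412 TPM in PAD4-DN and 372 and 399 TPM in WT. The sulfotransferase Chst11 was at 51.8 and 46.4 TPM in PAD4-DN and 42.6 and 36.1 TPM in WT, and the xylose kinase Fam20b at 41.6 and 41.3 TPM against 34.2 and 41.9 TPM. The chain-starting enzymes Csgalnact1 and Csgalnact2 were each between 27.8 and 46.1 TPM. Of the 12 genes of keratan sulfate synthesis, including the sulfate donor pathway, 9 were tested and 0 were called. A ratio above 2 was found for 2 of the 9, near the share of all tested genes. The sulfate donor synthase Papss1 was at 116 and 169 TPM in PAD4-DN and 148 and 145 TPM in WT.

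Among receptors and ligands of the family, 22 of 24 listed genes were tested, 0 were called, and 8 had a ratio of highest to lowest library above 2. The integrin chain Itgb1 (524 to 641 TPM), the hyaluronan receptor Cd44 (231 to 273 TPM), the endocytic receptor Lrp1, which takes up decorin (183 to 241 TPM), and the TGF-beta binding protein Ltbp1 (128 to 157 TPM) were the most abundant. Of the targets of decorin and biglycan, named after their values were seen, Met was at 46.8 and 67.9 TPM in PAD4-DN and 62.1 and 67.2 TPM in WT. Egfr was at 22.9 and 22.1 TPM in PAD4-DN and 25.8 and 26.2 TPM in WT. Tlr4 was at 19.4 and 32.8 TPM in PAD4-DN and 17.6 and 20.3 TPM in WT, and Tlr2 at 1.76 and 0.633 TPM against 0.848 and 1.54 TPM.

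Of 16 proteases and helpers that cut or release these proteins, 14 were tested and 0 were called. Bmp1, which removes the propeptides of decorin and biglycan, was at 103 and 92.1 TPM in PAD4-DN and 85.8 and 116 TPM in WT. Mmp3, a stromelysin that cleaves decorin, was at 468 and 1174 TPM in PAD4-DN and 902 and 322 TPM in WT, lowest in the libraries in which Prelp was present. Mmp14 was at 562 and 427 TPM in PAD4-DN and 433 and 395 TPM in WT. Among 24 other matrix and cell surface proteoglycans, 16 were tested and 0 were called. The hyaluronan-binding versican (Vcan) was at 269 and 218 TPM in PAD4-DN and 175 and 186 TPM in WT without overlap. In CPM, 2 of these 16 lay higher in PAD4-DN without overlap, near the 15.4% of all tested genes that did so. Perlecan (Hspg2) was at 227 and 158 TPM in PAD4-DN against 191 and 190 TPM in WT. Dcn thus stood above each of these proteoglycans in TPM in every library, and Lum above Vcan in 3 of 4.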

How the data were processed

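Poly-A RNA of sorted tumour cells was sequenced in 2 PAD4-DN and 2 WT samples. The authors deposited 1 kallisto abundance table per sample, on build GRCm39 per the submitters' processing notes, and the annotation release is not known here. The deposited estimated counts are not normalized and need not be whole. The deposited TPM values correct for effective length, and those of a library add up to 1000000. Lengths and effective lengths, other columns per the file headers, served only as offsets.

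Transcript identifiers without version were matched to GENCODE M21, on an earlier build, for names only. Of 117486 transcripts 116408 matched, and the other 1078, with 0.483% to 0.493% of counts, were left out. Counts were summed per gene and rounded. Where transcripts resemble each other, kallisto's split of their reads is estimated. Without molecular identifiers, PCR copies cannot be told from molecules, so intervals (exact, 95%, 2-sided) and the floor of 3 counts for a count of 0 cover counting error only.

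PAD4-DN was compared with WT by edgeR 4.0.16, using TMM, filterByExpr (13718 genes kept) and its quasi-likelihood test, with Benjamini-Hochberg adjusted p under 0.05 as the call. The alternatives were DESeq2 1.42.0, its size factors, no low-count filter, limma-trend (limma 3.58.1) on log2(TPM + 1) or log2(TPM + 0.1) for genes averaging 1 TPM or more, offsets for effective length, blocking on replicate, and leaving out each library.

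The members and lists were chosen with earlier results of these data known. Named by rule were the 8 members, up to 4 genes per list by mean TPM, and the 3 protein-coding genes closest in profile to each member with a mean of at least 5 CPM. Epcam, Cdh1, Ptprc, Epyc, Optc, Acan, Col2a1 and the genes so marked in the report were named after their values were seen. Wisp1, listed among the receptors and ligands, had no match by symbol. Other names of it were not searched, so this does not show that the gene is absent from the data.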

Additional observations from a re-analysis of the deposited data

How the results depend on the processing

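No member was called under any of the 13 settings run. Over all genes, in place of 0 calls, DESeq2 on the same genes gave 11 and edgeR without the low-count filter gave 10. Leaving out each library in turn gave 0 to 2 calls over all genes. The cause was not tested. Replicate 1 minus 2 in PAD4-DN correlated at −0.32 with the same difference in WT over 13718 genes. With a replicate block 0 genes were called, and with the numbers crossed, an alternative added after the data were seen, 1 gene was called. The log2 fold changes kept their direction in all settings other than the left-out libraries. With 1 library left out, an arm holds 1 sample that is assumed to vary like the others. Then the log2 fold change ran from −0.34 to 0.65 for Lum, from −2.70 to 0.25 for Bgn, from −0.15 to 2.46 for Ogn and from −6.48 to 5.80 for Prelp, each changing sign, and from 0.05 to 0.40 for Dcn and from 0.50 to 2.21 for Aspn without a change of sign. The pathway lists, recomputed with limma-trend on log2(TPM + 1) and with each library left out, held 0 called genes each time. Of 80 recomputed list medians, 26 moved by more than the spread between libraries. The ratios of highest to lowest library kept Dcn and Lum as the 2 steady members on TPM and with DESeq2 size factors. Lum stayed close to the limit of 2, at 1.967 on TPM and 1.997 with DESeq2 size factors. Depth limits Omd, Fmod and the low libraries of Prelp.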

Other observations

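Cartilage and tendon markers were compared because several of the proteoglycans are best known from those tissues. Of 10 such genes 5 were tested and 0 were called by edgeR. The cartilage regulator Sox9 was at 24.6 and 27.2 TPM in PAD4-DN and 32.7 and 12.5 TPM in WT. Cilp, a cartilage matrix protein, was at 9.45 and 4.44 TPM in PAD4-DN and 1.92 and 8.41 TPM in WT, lowest in WT replicate 1 as Aspn and Ogn were. Aggrecan (Acan), the defining cartilage proteoglycan, was at 0 counts in all 4 libraries, and the type II collagen chain Col2a1 had 11 and 1 counts in PAD4-DN and 1 and 38 counts in WT, following the libraries of Prelp.

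Lists of other cell types held 0 called genes by edgeR, and their summed levels were as follows. Endothelial markers summed to 54.0 and 33.8 TPM in PAD4-DN and 32.2 and 29.3 TPM in WT. Pericyte and smooth muscle markers summed to 11.0 and 9.70 TPM in PAD4-DN and 7.84 and 9.04 TPM in WT. Neutrophil markers summed to 66.7 and 13.8 TPM in PAD4-DN and 47.4 and 7.67 TPM in WT, and skeletal muscle markers to 9.09 and 8.79 TPM against 9.85 and 10.2 TPM. Neutrophil markers were thus higher in replicate 1 of each genotype, a pattern that none of the 8 proteoglycans followed. Epithelial markers summed to 389 and 317 TPM in PAD4-DN and 378 and 355 TPM in WT.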
